A study of Mus musculus with 9 samples.

Results

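RNA of mouse squamous cell carcinoma (SCC) cells that express wild-type focal adhesion kinase (FAK-WT) was compared, across all genes, with RNA of SCC cells that express a kinase-dead mutant (FAK-kd). The comparison took 6 of the 9 RNA-seq libraries of the series, 3 FAK-WT and 3 FAK-kd, which were assigned by the genotype that the labels give, and tested 19044 gene identifiers. The SCC cells came from skin tumours that were raised by DMBA and TPA treatment in FVB mice carrying a floxed *Ptk2* gene (FAK flox/flox) and the K14CreER transgene, in which the keratin 14 promoter drives a tamoxifen-inducible Cre, and 4-hydroxytamoxifen was used to delete FAK in the cells. FAK-WT or FAK-kd was then returned by retroviral infection and hygromycin selection to a FAK-/- clone. All groups therefore share the deletion and the clonal origin. Each FAK form is represented by 1 transduced line and the 3 libraries of a group are replicates of that line, so that a difference between the FAK forms and a difference between these 2 lines cannot be told apart. The FAK-/- cells, also 3 libraries, entered the fit for the estimate of spread and are given as a level beside the members. The labels do not state whether replicates came from separate cultures, and p-values measure the spread between these libraries.

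FAK, a cytoplasmic tyrosine kinase, is recruited to integrins at sites of attachment to the extracellular matrix. There it phosphorylates itself, binds Src-family kinases and assembles adaptors such as p130Cas and paxillin. It also has scaffold functions that do not need its catalytic activity, and in SCC cells a nuclear pool of FAK has been linked to the transcription of cytokine and chemokine genes. Setting FAK-WT against FAK-kd cells asks which transcripts differ with kinase activity when FAK RNA is present on both sides.

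The libraries held 33500699 to 37264636 counts, except FAK-WT replicate 1 with 779755. In that library 1 count corresponds to over 1 CPM (the unit of level used here, counts scaled to TMM-normalized library sizes), and a gene of low level is often at 0 there. Each count that leads a paragraph was therefore also taken from a fit without it. Epithelial markers were not those of a stratified keratinocyte, although 9 of 12 such markers were in the table and summed to 228 to 244 CPM in FAK-WT and 350 to 357 CPM in FAK-kd libraries. *Krt5*, *Krt14*, *Sfn*, *Perp*, *Col17a1* and *Cdh1* had mean levels under 1 CPM in both groups. The other 3, *Krt15*, *Itga6* and *Itgb4*, held nearly all of the sum, and *Krt15* was lower in FAK-WT cells. *Vim*, an intermediate filament gene of mesenchymal cells, had 7365 to 8143 CPM. Of 9 fibroblast markers, 8 were in the table and summed to 1610 to 1700 CPM in FAK-WT and 1410 to 1990 CPM in FAK-kd libraries. Among them *Dcn*, *Thy1* and *Postn* were under 1 CPM. The summed level of 6 immune cell markers was 0 to 2.75 CPM across the 6 libraries.

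*Ptk2*, the gene of FAK (ENSMUSG00000022607, GRCm38 chr15:73205102-73423280, minus strand), was measured first because it checks the labels. The FAK-WT libraries had 169, 8122 and 7491 counts, which correspond to 213, 216 and 216 CPM. The FAK-kd libraries had 155, 158 and 176 CPM, and the FAK-/- libraries had a mean of 21.6 CPM. FAK RNA was thus far above the FAK-/- level in both lines, with a log2 fold change between FAK-WT and FAK-kd of 0.40 ± 0.08 (SE; adjusted p = 0.0016), under the minimum fold change used here. The counts do not separate the mutant from the wild-type transcript, so the kinase mutation itself is not checked by these data. *Ptk2b*, which encodes the related kinase Pyk2, had 47.8, 42.2 and 39.8 CPM in FAK-WT and 51.6, 53.3 and 56.5 CPM in FAK-kd libraries (log2 fold change -0.36 ± 0.09).

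A gene was past the threshold with an adjusted p not above 0.05 (edgeR quasi-likelihood test with Benjamini-Hochberg adjustment over all genes, which applies to each adjusted p given here) and an absolute log2 fold change of 1 or more, the minimum fold change. Of 19044 genes, 451 (2.37%) were higher in FAK-WT than in FAK-kd cells and 550 (2.89%) were lower. These shares, 5.26% in both directions together, are the ones to set beside the count of each gene list below. Without FAK-WT replicate 1 the numbers were 425 (2.23%) and 544 (2.86%), and 936 of the 1001 genes were called the same way. Leaving out each of the 6 libraries in turn, 632 genes kept their call every time. The 3 FAK-WT libraries did not overlap the 3 FAK-kd libraries for 794 of the 1001 genes, against 47.7% of 12234 expressed genes (those kept by edgeR's filterByExpr). Among the genes that were past the threshold, 30 had no count in any FAK-WT library and 71 had none in any FAK-kd library.

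**Figure D1:**
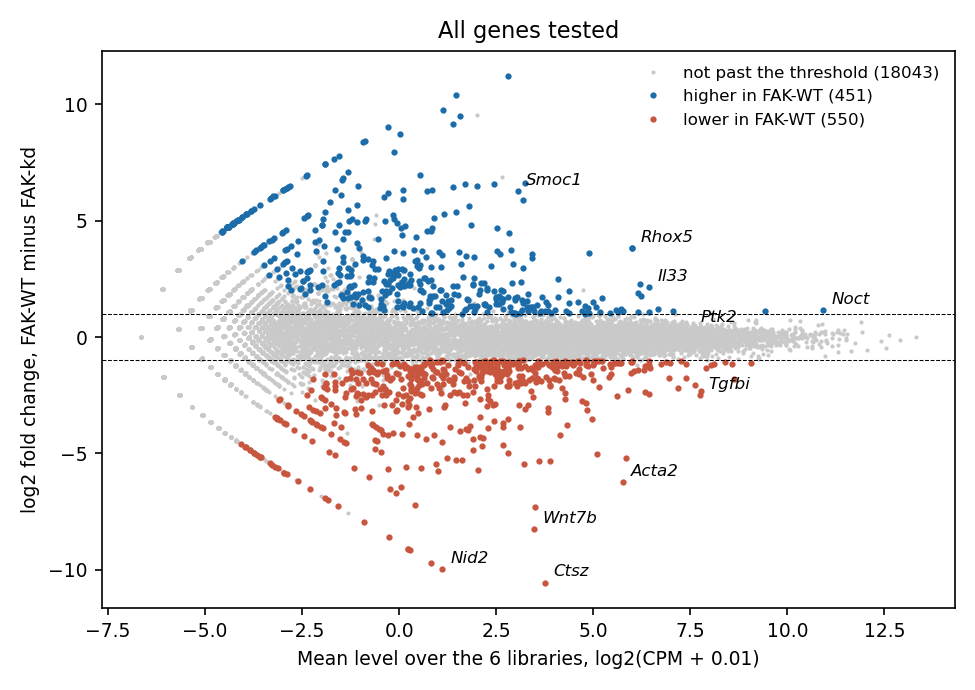
Each point is 1 of 19044 genes. The x axis is the mean level over the 6 libraries as log2(CPM + 0.01), the y axis the log2 fold change of FAK-WT minus FAK-kd cells, and the dashed lines mark a log2 fold change of 1 and -1. The 451 genes higher in FAK-WT are blue and the 550 genes lower are red. *Ctsz*, *Nid2* and *Wnt7b* lie lowest among the labelled genes, and *Smoc1* and *Rhox5* highest.

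*Il33* encodes interleukin-33, a member of the interleukin-1 family that acts as an alarmin when released and is also found in the nucleus (ENSMUSG00000024810, chr19:29925114-29960718, plus strand). It had 138, 141 and 145 CPM in the FAK-WT libraries and 21.6, 37.7 and 37.4 CPM in the FAK-kd libraries. The log2 fold change was 2.14 ± 0.18 (adjusted p = 6.2e-07), and every FAK-WT library was above every FAK-kd library. FAK-/- cells had a mean of 58.7 CPM, above all FAK-kd libraries. *Rhox5*, an X-linked homeobox gene (ENSMUSG00000095180, chrX:37804842-37808876, plus strand), had 116, 120 and 124 CPM in FAK-WT and 9.77, 7.61 and 8.08 CPM in FAK-kd cells, a log2 fold change of 3.83 ± 0.11 (adjusted p = 4.3e-12). A second identifier carries the same counts as *Rhox5*, so the 2 are 1 measurement. *Ctsz*, which encodes the lysosomal cysteine protease cathepsin Z (ENSMUSG00000016256, chr2:174427493-174439039, minus strand), went the other way. It had 0, 1 and 0 counts in the FAK-WT libraries and 897, 885 and 934 in the FAK-kd libraries. With 1 count in the whole FAK-WT group the ratio of FAK-kd to FAK-WT was 1966, with an exact 95% counting interval from 352.6 to 77700. FAK-/- cells lay between the 2 lines at 9.15 CPM. For all 4 genes the exact permutation test over libraries gave p = 0.1, the smallest value that 3 libraries against 3 allow.

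**Figure D2:**
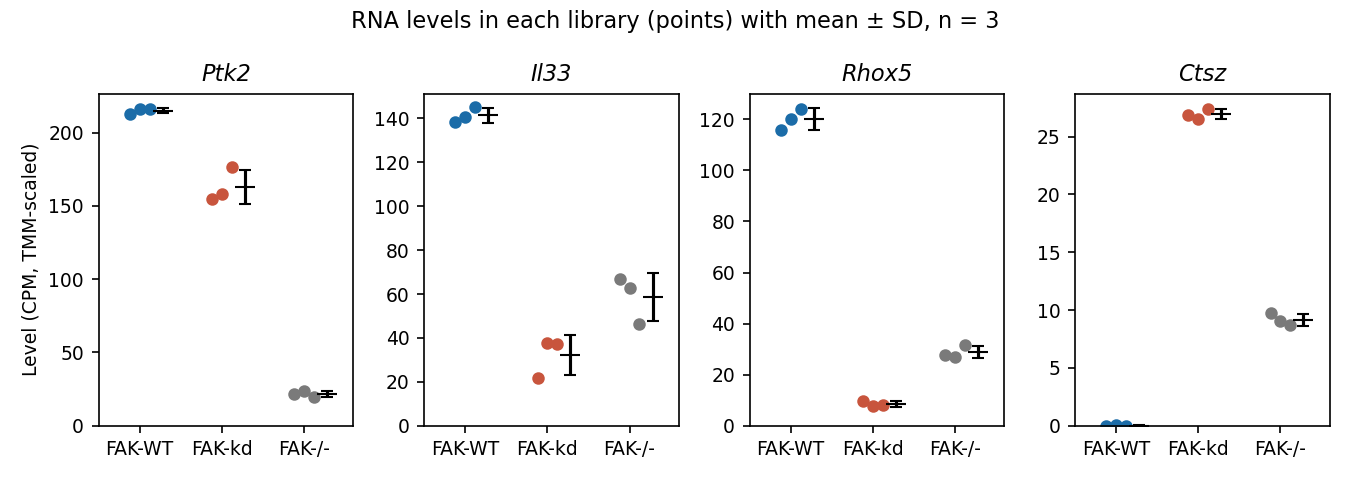
Levels of *Ptk2*, *Il33*, *Rhox5* and *Ctsz* in CPM (y axis, from 0) in the 3 libraries of each cell line (points), with the mean ± SD (n = 3) to the right of the points. FAK-WT and FAK-kd points do not overlap in any of the 4 panels. *Il33* and *Rhox5* are highest in FAK-WT cells and *Ctsz* in FAK-kd cells.

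*Il33* carries AP-1 and ATF motifs in an intronic region (mm10 chr19:29942491-29942691, outside annotated exons), whose centre is at -3199 bases from the nearer of its start sites. The study treats this region as an *Il33* enhancer that is accessible in FAK-WT cells. Its text gives the cyclic AMP response element there as the c-Jun site, and by ChIP-qPCR less c-Jun was bound in FAK-kd cells. The stretches that the study's supplementary material matches to Jun and Atf2 are shown beside the RNA of the factors that can bind them. The capitals mark the letters TGANTCA, the AP-1 site, and TGACGTCA, the cyclic AMP response element, letters found on either strand in 7.81% and 1.79% of all promoters described below for the interferon genes.
Il33 stretch matched to Jun: tcTGACTCAttg
Il33 stretch matched to Atf2: tccTGACGTCAg
No gene of the Jun and Fos families was past the threshold. *Jun* had 296, 296 and 293 CPM in FAK-WT libraries and 340, 381 and 365 CPM in FAK-kd libraries (log2 fold change -0.30 ± 0.11, adjusted p = 0.073). *Fosl1* (-0.25 ± 0.10), *Fosl2* (-0.08 ± 0.07) and *Junb* (0.19 ± 0.15) had differences of similar size or smaller. *Atf2* differed by -0.07 ± 0.08 and *Atf7* by -0.52 ± 0.07 (adjusted p = 0.00013), the latter under the fold-change minimum. Of 28 AP-1 and ATF family genes only *Maf*, a large Maf factor, passed (3.57%, against 5.26% of all genes). *Maf* was lower in FAK-WT cells (10.1, 6.17 and 5.62 against 20.8, 23.4 and 21.8 CPM). None of 25 ETS factors passed, and *Ets1* and *Etv1* differed by -0.12 ± 0.07 and -0.10 ± 0.09.

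Other members of the interleukin-1 family did not move as a group. Of 20 family genes in the table, 2 (10%) were higher in FAK-WT cells and 1 (5%) was lower, against 2.37% and 2.89% of all genes. *Il1rl1*, the receptor of interleukin-33, was the gene that was lower, with 10.1, 13.3 and 13.3 CPM against 17, 30.9 and 32.2 CPM (log2 fold change -1.03 ± 0.20). It was not called without FAK-kd replicate 2 (-0.90) or 3 (-0.86). The ligand and its receptor thus differed in opposite directions. *Il1rap*, the co-receptor, had a log2 fold change of 0.47 ± 0.11. *Il1rl2*, a receptor of interleukin-36, was higher, but at 75 counts over the 3 FAK-WT libraries and 4 over the FAK-kd libraries.

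Chemokines, secreted attractants of leukocytes, were called in both directions. Among 35, 5 (14.3%) were higher and 3 (8.57%) were lower, against 2.37% and 2.89% of all genes. Among 13 CC ligands 4 were higher, 1 was lower and 8 did not pass. The median log2 fold change of these 13 was 1.72, where the median over all genes was 0.00. Only 5 of the 13 reached a mean of 1 CPM in FAK-WT or FAK-kd cells, so this median includes genes near the floor and does not show a shift of the family. *Ccl2* and *Ccl7*, which attract monocytes, had neighbouring values. *Ccl2* had 6.29, 10.9 and 11.7 CPM in FAK-WT and 1.77, 3.09 and 3.02 CPM in FAK-kd libraries (log2 fold change 2.03 ± 0.25, adjusted p = 3.3e-05). *Ccl7* had a log2 fold change of 2.19 ± 0.30. *Ccl5*, which attracts T cells and eosinophils, had 1.26, 3.51 and 3.4 CPM against 0.42, 0.749 and 0.644 CPM (2.42 ± 0.34), and *Cxcl10*, an interferon-inducible ligand of CXCR3, had 2.52, 2.34 and 2.71 CPM against 0.0899, 0.569 and 0.293 CPM (2.98 ± 0.48). In each of these 4 genes the lines did not overlap, at levels of about 12 CPM or less. The most abundant chemokine of the list that was called, *Cx3cl1*, which encodes the membrane-bound ligand fractalkine, was lower in FAK-WT cells. It had 84.3, 73.3 and 76.8 CPM in FAK-WT and 337, 299 and 309 CPM in FAK-kd libraries (log2 fold change -2.05 ± 0.08, adjusted p = 2.0e-10). The receptor *Cxcr4* had 3 counts in all FAK-WT libraries together and 140 in FAK-kd libraries. *Ccl17* was called lower with all libraries and not without FAK-WT replicate 1.

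Genes that interferon induces were more often higher in FAK-WT cells. Of 75 interferon-stimulated and nucleic acid sensing genes, 10 (13.3%) were higher and 2 (2.67%) were lower, against 2.37% and 2.89% of all genes. The counts were the same without FAK-WT replicate 1. In other settings fewer of these genes were mostly called. The 12 calls fell to 8 with DESeq2, 8 with filterByExpr and 7 when tested against a log2 fold change of 1. Leaving out 1 FAK-WT or FAK-kd library gave 9 to 13. The 42 effector genes held 9 of those that were higher and had a median log2 fold change of 0.83. Of these 42, 32 did not pass, and 21 reached a mean of 1 CPM in FAK-WT or FAK-kd cells. *Ifit1*, which binds foreign RNA, had 3.78, 6.15 and 6.2 CPM in FAK-WT and 0.57, 0.749 and 0.673 CPM in FAK-kd libraries (log2 fold change 3.14 ± 0.36, adjusted p = 1.5e-05). *Isg15*, a ubiquitin-like modifier, had 5.04, 6.92 and 7.32 CPM against 0.809, 1.71 and 1.02 CPM (2.54 ± 0.28). *Aim2*, a sensor of cytosolic DNA, had 333 counts over the FAK-WT libraries and 5 over the FAK-kd libraries (6.47 ± 0.44). The FAK-WT libraries were above the FAK-kd libraries for all 3. *Rsad2*, which encodes viperin, had 21 counts in FAK-WT and 0 in FAK-kd cells. It was 9.67-fold higher when the FAK-kd group was set to a floor of 3 counts, without the counting error of the 21. The others that were higher were *Gvin1*, *Gbp9*, *Oasl2*, *Oasl1*, *Ifit3* and *Mx1*, of which *Mx1* changed least (1.19 ± 0.22). All 10 had levels under 8 CPM in the FAK-WT cells.

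The receptors and transcription factors that interferon signals through did not pass, and none of 15 signaling genes did. *Irf9* differed by 0.03 ± 0.19 and *Irf7* by 0.39 ± 0.45, and *Ifnar1*, the receptor subunit, by -0.24 ± 0.11. Among the sensors, *Cgas* differed by 0.05 ± 0.09 and *Ddx58*, which encodes RIG-I, by 0.72 ± 0.20. *Bst2*, which encodes tetherin, was lower in FAK-WT cells, with 5.04, 7.96 and 8.88 CPM against 19.8, 17.2 and 18.4 CPM (-1.16 ± 0.13). *Tlr3* was called lower with 2 counts in FAK-WT replicate 1, none in the other FAK-WT libraries and 66 in FAK-kd libraries.

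To show what these genes carry at their start sites, the promoter sequences of RefSeq (GRCm38.p6, 250 bases before to 50 after each start) were searched on both strands for GAAANNGAAA, the letters of an interferon-stimulated response element. The letters were in 3.44% of all 32851 promoters. For the interferon list, genes and not promoters were counted, and a gene with several promoters needed the letters in only 1 of them. The letters were in 26 of the 57 interferon genes with an entry. By call, they were in 4 of 7 genes that were higher in FAK-WT cells, 1 of 2 that were lower and 21 of 48 that did not pass. The share was thus of the same order whether or not a gene was called. One match for each called gene, and for *Cxcl10*, is shown 5′ to 3′ along the gene. Capitals mark the match, which is read as its reverse complement where it lies on the other strand, and all stretches end before the start site.
Ifit1, chr19:34640790-34640827, plus strand: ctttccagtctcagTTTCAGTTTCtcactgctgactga
Ifit3, chr19:34583393-34583430, plus strand: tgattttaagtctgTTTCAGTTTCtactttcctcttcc
Isg15, chr4:156200861-156200898, minus strand: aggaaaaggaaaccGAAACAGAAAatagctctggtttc
Rsad2, chr12:26456549-26456586, minus strand: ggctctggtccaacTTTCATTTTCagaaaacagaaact
Cxcl10, chr5:92349079-92349116, minus strand: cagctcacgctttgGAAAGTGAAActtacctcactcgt
Bst2, chr8:71537573-71537610, minus strand: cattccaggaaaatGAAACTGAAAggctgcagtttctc
The first 5 genes were higher in FAK-WT cells and *Bst2* was lower. All were shown because they carry the letters, so they cannot relate the letters to the direction.

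Antigen presentation differed in few genes. Of 31 MHC class I genes 2 were higher in FAK-WT cells and none was lower. This was 6.45% called, near the 5.26% of all genes called in either direction. *Nlrc5*, the transactivator of class I genes, had 104 counts over the FAK-WT libraries and 4 over the FAK-kd libraries (log2 fold change 5.07 ± 0.61), at 0.721 to 2.52 CPM. The classical gene *H2-D1* had 117, 127 and 126 CPM against 76.7, 74.4 and 73.9 CPM, a difference of 0.74 ± 0.09 that was under the fold-change minimum, and *H2-K1* and *B2m* differed by 0.28 ± 0.10 and -0.07 ± 0.06. Of 24 checkpoint ligands and costimulators, 4 (16.7%) were lower in FAK-WT cells and none was higher, and 2 were called without FAK-WT replicate 2 or without FAK-WT replicate 3. These were *Icosl*, *Vsir*, *Cd200* and *Vtcn1*, of which *Cd200*, an inhibitory ligand for myeloid cells, had 2.52, 1.78 and 1.93 CPM against 5.58, 6.56 and 7.11 CPM (-1.77 ± 0.20). *Icosl* and *Vsir* lie on chromosome 10, whose genes had a median log2 fold change of -0.25. *Cd274*, which encodes PD-L1, was under 1 CPM in every library.

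The Wnt pathway had the most one-sided count among the lists of over 50 genes. Wnt proteins are secreted ligands that act through Frizzled receptors and the co-receptors Lrp5 and Lrp6, and their classical output runs through beta-catenin. Of 51 pathway genes, 11 (21.6%) were lower in FAK-WT cells and none was higher, against 2.89% and 2.37% of all genes. The count was the same without FAK-WT replicate 1, and the median log2 fold change of the list was -0.55. Of the 51 genes, 28 reached a mean of 1 CPM in FAK-WT or FAK-kd cells. The 11 comprised 4 ligands, 5 receptors and 2 antagonists.

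Among the Wnt ligands *Wnt7b* differed most. It had 0, 2 and 3 counts in the FAK-WT libraries and 555, 830 and 875 in the FAK-kd libraries, a log2 fold change of -8.27 ± 0.32 (adjusted p = 1.5e-10). *Wnt10b* had 0, 34 and 35 counts against 396, 409 and 412 (-3.68 ± 0.22). The FAK-/- cells had 8.43 CPM of *Wnt7b* and 8.89 CPM of *Wnt10b*, between the 2 lines in both cases. *Wnt10a* (-1.45 ± 0.18) and *Wnt9a* (-1.51 ± 0.34) were lower as well, and *Wnt5a* had 0 counts in FAK-WT libraries and was not past the threshold.

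Among the Wnt receptors, *Lrp5* had 2.52, 7.61 and 6.89 CPM in FAK-WT and 49.7, 49.7 and 51.6 CPM in FAK-kd libraries (log2 fold change -2.83 ± 0.14, adjusted p = 1.6e-09), whereas the related *Lrp6* had 93.2, 103 and 97.6 CPM against 93.9, 106 and 117 CPM (-0.09 ± 0.09). The 2 co-receptors were thus unlike each other. *Fzd1* (-1.75 ± 0.13), *Fzd8* (-1.39 ± 0.14), *Fzd9* (-3.63 ± 0.86) and *Ror2*, a receptor of non-canonical Wnt signals (-1.56 ± 0.13), were lower. *Sfrp1*, a secreted antagonist, had 5.04, 4.68 and 5.22 CPM against 58.1, 57.1 and 57.5 CPM (-3.54 ± 0.10, adjusted p = 4.3e-12), and *Notum*, which removes the lipid of Wnt proteins, had 3 counts in the FAK-WT group and 222 in the FAK-kd group (ratio 53.6, exact 95% counting interval 18.1 to 261.8). None of 11 effectors and targets passed. *Ctnnb1*, the gene of beta-catenin, differed by -0.24 ± 0.06 and *Axin2*, a classical target, by 0.38 ± 0.38 with overlap between the lines. *Tcf7l2* and *Lef1* differed by -0.46 ± 0.11 and -0.79 ± 0.27.

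**Figure D3:**
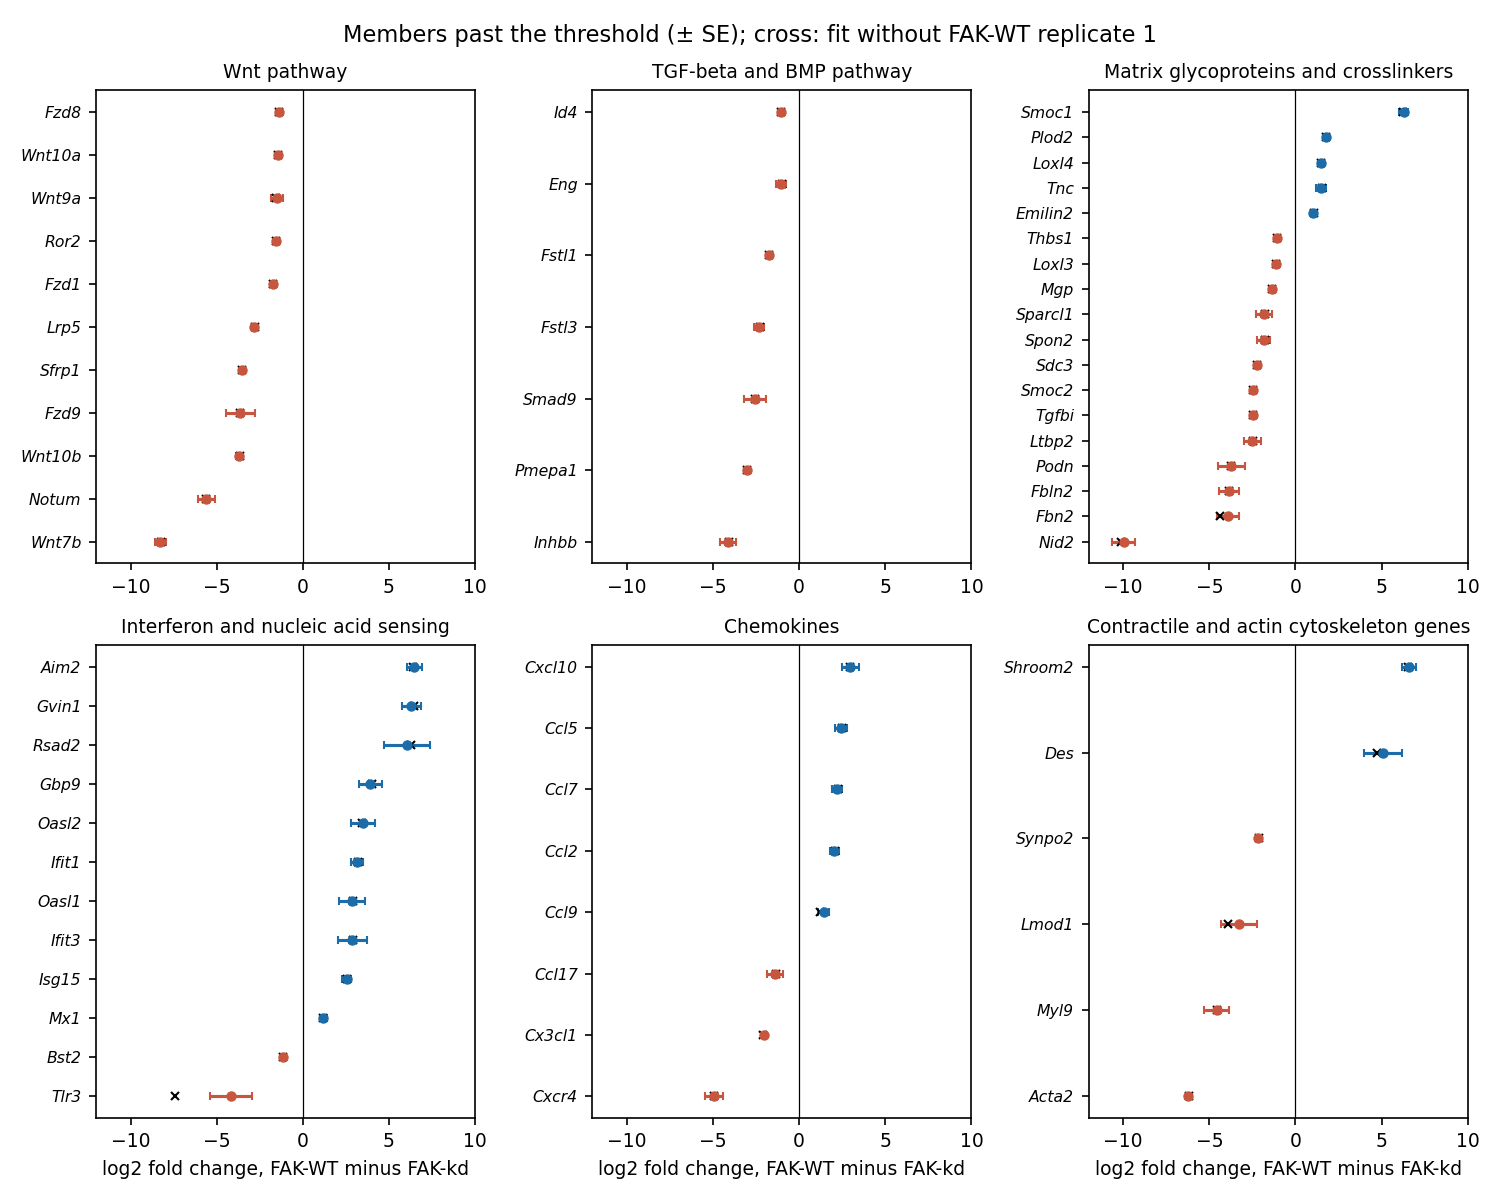
Members past the threshold of 6 gene lists. The x axis is the log2 fold change of FAK-WT minus FAK-kd cells, points with bars show the estimate ± SE from the fit of all libraries (blue higher, red lower in FAK-WT), and crosses show the estimate without FAK-WT replicate 1. All 11 Wnt and all 7 TGF-beta and BMP genes lie to the left of 0, and 10 of 12 interferon genes to the right. The cross of *Tlr3* lies farther from its point than those of the other genes.

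The TGF-beta and BMP pathway and the Notch pathway were also called in 1 direction. Of 53 TGF-beta and BMP genes, 7 (13.2%) were lower in FAK-WT cells (6 without FAK-WT replicate 1, where *Eng* was not called). None was higher, and the shares over all genes were 2.89% lower and 2.37% higher. The 7 genes were of several kinds. They held the ligand subunit *Inhbb* (-4.11 ± 0.46), the antagonists *Fstl1* and *Fstl3*, the effectors *Smad9* and *Id4*, and *Pmepa1*, a feedback inhibitor that TGF-beta induces. *Pmepa1* had 1.26, 3.51 and 2.91 CPM in FAK-WT and 25.4, 26 and 27.3 CPM in FAK-kd libraries (-3.05 ± 0.15, adjusted p = 1.6e-09). *Fstl1* had 79.3, 72.4 and 77.6 CPM against 306, 232 and 234 CPM (-1.77 ± 0.10). The FAK-/- mean, 30.2 CPM for *Pmepa1* and 360 CPM for *Fstl1*, was above every FAK-kd library in both. The receptors *Tgfbr1* and *Tgfbr2* differed by -0.47 ± 0.10 and 0.48 ± 0.07, in opposite directions. Of 25 Notch pathway genes 4 (16%) were lower and none was higher. The 4 were the receptor *Notch1* (3.78, 3.35 and 2.94 against 12.4, 12.5 and 13 CPM, -1.99 ± 0.16) and the targets *Hes6*, *Hey1* and *Nrarp*. *Notch2*, the more abundant receptor, had 74.4 to 85.6 CPM in FAK-WT and 75.8 to 88.2 CPM in FAK-kd libraries.

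The matrix was among the most changed groups in number. Of 72 matrix glycoproteins, proteoglycans and crosslinkers, 13 (18.1%) were lower in FAK-WT cells and 5 (6.94%) were higher, against 2.89% and 2.37% of all genes. *Tgfbi*, a secreted integrin ligand that TGF-beta induces, was the most abundant gene of these with a large difference. It had 66.7, 65.2 and 65.1 CPM in FAK-WT libraries and 366, 355 and 371 CPM in FAK-kd libraries (log2 fold change -2.48 ± 0.07, adjusted p = 2.9e-12), and FAK-/- cells had 374 CPM. *Nid2*, which encodes the basement membrane protein nidogen-2, had no count in any FAK-WT library and 113, 158 and 164 in the FAK-kd libraries. It was 105-fold lower when the FAK-WT group was set to a floor of 3 counts. *Thbs1*, the gene of thrombospondin-1, had 339, 362 and 325 CPM against 617, 766 and 811 CPM (-1.10 ± 0.09). The heparan sulfate proteoglycan *Sdc3* (-2.26 ± 0.09), the calcification inhibitor *Mgp* (-1.34 ± 0.08) and the crosslinking enzyme *Loxl3* (-1.15 ± 0.08) were lower in FAK-WT cells too, with no overlap between the lines.

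The related genes *Smoc1* and *Smoc2*, which encode secreted modular calcium-binding proteins, differed in opposite directions. *Smoc1* had 18.9, 16.4 and 13.9 CPM in FAK-WT and 0.15, 0.18 and 0.264 CPM in FAK-kd libraries (log2 fold change 6.28 ± 0.26, adjusted p = 2.6e-10). *Smoc2* had 31.5, 26.1 and 26.5 CPM against 187, 124 and 129 CPM (-2.46 ± 0.14). Crosslinking enzymes differed in both directions as well. *Plod2*, a lysyl hydroxylase, had 111, 116 and 120 CPM against 32.6, 36 and 35.4 CPM (1.75 ± 0.08, adjusted p = 1.2e-09), and *Loxl4* was higher by 1.49 ± 0.13. *Tnc* and *Emilin2* were the other genes that were higher.

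Of 49 collagens and laminins 3 were higher and 3 lower (12.2% called, against 5.26% of all genes), and 23 reached a mean of 1 CPM in FAK-WT or FAK-kd cells. The 3 that were lower had the larger levels. *Col18a1*, a basement membrane collagen, had 94.4, 70.5 and 68.7 CPM in FAK-WT and 355, 358 and 368 CPM in FAK-kd libraries (log2 fold change -2.30 ± 0.10, adjusted p = 3.1e-10), *Col12a1* had 1.26, 1.78 and 1.93 against 26, 34.4 and 40.7 CPM (-4.19 ± 0.19), and *Lama4* was lower by a log2 fold change of -3.52 ± 0.16. *Col18a1* and *Lama4* lie on chromosome 10. The collagens that were higher, *Col22a1*, *Col9a3* and *Col24a1*, were at 2.52 CPM or below, and *Col24a1* was not called without FAK-WT replicate 1. Among 46 extracellular proteases and inhibitors, 3 were higher and 2 lower (10.9% called). *Plau*, the gene of urokinase, was higher by 1.06 ± 0.17, and *Timp3*, an inhibitor of metalloproteinases, had 11 counts over the FAK-WT libraries against 813 over the FAK-kd libraries (-5.70 ± 0.31, chromosome 10). No metalloproteinase of the MMP family was past the threshold.

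Among integrins and the adhesion machinery that FAK binds, a few genes differed by a large fold. Of 26 integrin subunits 1 was higher and 2 were lower, 11.5% against 5.26% of all genes. *Itgb3*, the beta3 subunit, had 0, 18 and 12 counts in FAK-WT and 547, 600 and 710 in FAK-kd libraries (log2 fold change -5.48 ± 0.21, adjusted p = 1.1e-10). Its partner *Itgav* had 149, 154 and 149 CPM against 139, 147 and 157 CPM, and *Itgb1* differed by 0.02 ± 0.08. *Itga2*, a collagen receptor subunit, was lower by -2.54 ± 0.44 at under 1 CPM, and *Itga10*, another, was higher by 1.29 ± 0.23. Of 58 FAK signaling and adhesion genes 2 were higher and 4 lower (10.3%), and 25 had an adjusted p not above 0.05 whatever their fold change, against 3376 of all 19044 genes. These last 2 counts are not at like levels, since 48 of the 58 reached a mean of 1 CPM in FAK-WT or FAK-kd cells, against 11135 of all genes. *Nedd9*, a Cas-family adaptor that FAK phosphorylates, had 2.52, 2.93 and 2.6 CPM against 5.49, 8.36 and 9.05 CPM (-1.47 ± 0.21), and the LIM protein gene *Fhl1* had 1.26, 2.93 and 2.8 CPM against 26.6, 25 and 26.5 CPM (-3.20 ± 0.12). *Arhgef28*, an exchange factor that binds FAK, was lower (-1.48 ± 0.42). *Src* (-0.25 ± 0.09), *Pxn* (0.27 ± 0.10), *Bcar1* (0.34 ± 0.12), *Tln1* (0.12 ± 0.10) and *Vcl* (-0.14 ± 0.07) did not pass.

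Among contractile genes, *Acta2*, the smooth muscle actin gene, had 0, 56 and 50 counts in the FAK-WT libraries and 3934, 3543 and 3425 in the FAK-kd libraries, a log2 fold change of -6.22 ± 0.14 (adjusted p = 8.7e-13), and 74.9 CPM in FAK-/- cells. Of 46 contractile and actin genes 4 were lower (*Acta2*, *Synpo2*, *Myl9* and *Lmod1*) and 2 were higher (*Shroom2* and *Des*), 13% against 5.26% of all genes, with a median of -0.44. *Synpo2*, an actin-bundling protein of muscle, had 8.81, 12.7 and 14 CPM against 54.7, 58.7 and 63.2 CPM (-2.17 ± 0.12). *Cnn2*, a calponin, had 444, 436 and 445 CPM against 780, 755 and 767 CPM, a difference of -0.80 ± 0.07 that was under the fold-change minimum. *Myl9* and *Lmod1*, a myosin light chain and a leiomodin of smooth muscle, were lower with 2 and 3 counts over the FAK-WT libraries. *Tagln* was under 1 CPM in all 6 libraries, and *Myh11* and *Cnn1* had group means under 1 CPM. The summed level of 7 smooth muscle markers was 12.6 to 16.6 CPM in FAK-WT and 165 to 174 CPM in FAK-kd libraries, nearly all of it *Acta2* and *Synpo2*, and 132 to 135 CPM in FAK-/- libraries. *Shroom2*, a regulator of myosin at apical junctions, was higher in FAK-WT cells, with 431 counts over the FAK-WT libraries against 6 (6.58 ± 0.39).

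Among genes of YAP and TAZ, the coactivators that respond to cell tension, *Yap1* had 180, 181 and 178 CPM in FAK-WT and 177, 180 and 179 CPM in FAK-kd libraries, *Wwtr1*, which encodes TAZ, differed by -0.17 ± 0.07 and *Tead1* by -0.14 ± 0.07. Of 40 pathway and target genes 6 (15%) were lower and 1 (2.5%) was higher, against 2.89% and 2.37% of all genes. Without FAK-WT replicate 1 the counts were 5 and 1, where *Foxf2* was not called. *Vgll3*, a TEAD cofactor, had 6.29, 4.84 and 5.54 CPM against 32.9, 32.3 and 34.5 CPM (log2 fold change -2.67 ± 0.12, adjusted p = 4.0e-10). *Ccn2*, a classical target, had 0 counts in FAK-WT and 21 in FAK-kd libraries. It was 5.07-fold lower with the FAK-WT group set to the floor, without the counting error of the 21. *Ccn1*, the more abundant relative, differed by -0.88 ± 0.13. *Ankrd1*, another classical target, went the other way, with 6.29, 10.4 and 10.3 CPM in FAK-WT and 3.45, 2.61 and 2.64 CPM in FAK-kd libraries (1.77 ± 0.20). *Igfbp3*, which binds insulin-like growth factors, had 1.26, 0.958 and 1.67 CPM against 8.72, 9.2 and 8.81 CPM (-2.77 ± 0.18), and 32.5 CPM in FAK-/- cells.

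Growth factor receptors that were called were mostly lower in FAK-WT cells. Of 13 receptors for PDGF, VEGF and FGF, 1 was higher and 3 were lower (30.8% called, against 5.26% of all genes). Of 3 receptors of the EGF family, 2 were lower and none was higher. With their ligands the 2 lists had 17.6% and 18.8% called. *Egfr* had 23.9, 17.2 and 18.5 CPM in FAK-WT and 35.6, 36 and 38.4 CPM in FAK-kd libraries, with a log2 fold change of -1.0 ± 0.11 at the edge of the fold-change minimum, and was not called without FAK-WT replicate 2 (-0.91) or FAK-kd replicate 3 (-0.95), among other settings. *Pdgfrb* had 3.78, 6.87 and 5.85 CPM against 25, 35.6 and 38.9 CPM (-2.40 ± 0.17), and *Pdgfra* and *Fgfr2* were lower by log2 fold changes of -1.11 ± 0.16 and -1.29 ± 0.30. *Nrp1*, a co-receptor of VEGF and class 3 semaphorins, was the receptor that was higher, with 41.5, 33.9 and 34.6 CPM against 14.2, 11.4 and 12 CPM (1.49 ± 0.11), and the ligand *Pdgfc* was higher by 1.12 ± 0.11. Guidance families were called in both directions, 7 of 66 higher and 7 lower (21.2% called, against 5.26% of all genes). The 14 calls fell to 9 without FAK-WT replicate 2, FAK-WT replicate 3 or FAK-kd replicate 2. Among those with levels over 3 CPM, *Sema6b* (1.31 ± 0.18), *Efna5* (1.05 ± 0.14) and *Efna3* (1.56 ± 0.29) were higher and *Robo2*, a Slit receptor, was lower (5.04, 4.12 and 4.61 against 15.1, 14.6 and 17.6 CPM; -1.84 ± 0.13). Downstream, of 43 ERK pathway genes 1 was higher (*Dusp2*) and 1 was lower (*Spry1*), and 1 was called without FAK-WT replicate 3. This was 4.65% called, near the 5.26% of all genes.

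Epithelial genes were at low level on both sides. Of 21 keratins 4 (19%) were lower in FAK-WT cells and 2 (9.52%) were higher, against 2.89% and 2.37% of all genes. *Krt80* had 11.3, 12.8 and 11.1 CPM in FAK-WT and 4.74, 3.8 and 3.43 CPM in FAK-kd libraries (log2 fold change 1.58 ± 0.17). *Krt13* had 1.26, 2.63 and 2.88 CPM against 14.2, 10.3 and 10.3 CPM (-2.10 ± 0.19). The 4 keratins that were lower, *Krt20*, *Krt19*, *Krt15* and *Krt13*, lie on chromosome 11 and the 2 that were higher, *Krt6a* and *Krt80*, on chromosome 15. *Pkp1*, a desmosome plaque protein of stratified epithelium, had 1.26, 2.55 and 3.03 CPM in FAK-WT and 34.2, 38.9 and 41 CPM in FAK-kd libraries (-3.79 ± 0.14, adjusted p = 9.5e-11), and *Tgm2*, a transglutaminase, had 21.4, 19 and 20.7 CPM against 59.7, 67.2 and 67.6 CPM (-1.70 ± 0.10). *Cldn6*, a tight junction claudin of early epithelia, was higher, at 31.5, 32.2 and 34.5 CPM against 9.44, 7.67 and 8.43 CPM (1.96 ± 0.12). *Lgals7*, an epithelial galectin, had 1.26, 0.585 and 0.836 CPM against 29.7, 27.8 and 28.4 CPM (-5.31 ± 0.23). None of 23 regulators and markers of epithelial to mesenchymal transition was past the threshold, where *Zeb1* differed by -0.33 ± 0.07, *Cdh2* by -0.31 ± 0.07 and *Vim* by -0.11 ± 0.06.

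Among metabolic genes, the 24 genes of cholesterol synthesis and uptake had a median log2 fold change of -0.54. *Hmgcs1*, which makes HMG-CoA, had 140, 173 and 177 CPM against 294, 347 and 341 CPM (-0.96 ± 0.11), *Fdft1*, squalene synthase, differed by -0.73 ± 0.10 and *Srebf2*, the regulator of the pathway, by -0.58 ± 0.09. Of 16 hypoxia genes 2 were higher, 1 was lower and 13 did not pass (18.8% called, against 5.26% of all genes), with a median of 0.20. The carbonic anhydrases *Car12* (22.7, 18.1 and 18.4 against 1.71, 1.35 and 1.64 CPM; 3.58 ± 0.15) and *Car9* (1.48 ± 0.16), which hypoxia induces, were the 2 higher in FAK-WT cells. *Epas1*, the gene of HIF-2alpha, was lower (-1.87 ± 0.12) and *Hif1a* differed by 0.22 ± 0.09. None of 21 glycolysis genes passed.

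Of 60 cathepsin, lysosome and autophagy genes, 5 were lower, *Ctsz* among them, and 1 was higher (4 and 1 without FAK-WT replicate 1), 10% against 5.26% of all genes. *Ctsh*, an aminopeptidase of the cathepsin family, had 1.26, 1.49 and 1.5 CPM in FAK-WT and 7.14, 5.42 and 6.47 CPM in FAK-kd libraries (log2 fold change -2.09 ± 0.21). The abundant cathepsins did not pass, and *Ctsb*, *Ctsd* and *Ctsl* differed by 0.05 ± 0.06, 0.15 ± 0.07 and 0.29 ± 0.08. Of 13 NF-kB targets 1 was higher and 3 were lower, *Birc3*, *Bcl3* and *Traf1* (30.8% called). The adhesion molecule *Vcam1* was the one that was higher (40.3, 50.6 and 53.8 against 24.5, 24.2 and 22 CPM; 1.10 ± 0.12), and *Birc3*, an inhibitor of apoptosis, had a log2 fold change of -5.18 ± 0.39. The necroptosis kinase gene *Ripk3* was lower, with 0, 0.426 and 0.433 CPM against 13.5, 13.5 and 13.8 CPM (-4.99 ± 0.19, adjusted p = 1.4e-10). Of NF-kB subunits and inhibitors none passed, with *Rela* at -0.27 ± 0.10 and *Nfkbia* at 0.03 ± 0.13.

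Among the 10 genes of at least 100 normalized counts with the largest log2 fold change in each direction, several belong to none of these pathways. *Nol4l*, *Magea10*, *Tmem45a*, *Igf2bp1*, *Csprs* and *Ogdhl* were higher in FAK-WT cells. *Igf2bp1*, an RNA-binding protein of fetal and tumour cells, had 13.8, 10.1 and 9.57 CPM against 0.33, 0.539 and 0.322 CPM (log2 fold change 4.70 ± 0.28). *Ogdhl*, a mitochondrial dehydrogenase of the oxoglutarate family, had 13.8, 14.5 and 12.6 CPM against 0.929, 1.02 and 1.11 CPM (3.73 ± 0.18). *Magea10* is an X-linked cancer-testis gene, at 10.1, 10.7 and 11.5 CPM against 0.06, 0.24 and 0.0293 CPM. Lower in FAK-WT cells were *Bhlhe22*, a basic helix-loop-helix factor (0, 4 and 6 counts against 709, 779 and 780), *Gas7* and *Arl6ip1*, which had 2.52, 2 and 2.11 CPM against 73.5, 62.1 and 64.8 CPM (-5.02 ± 0.13). *Klf8*, a Kruppel-like factor reported downstream of FAK, was the single one of 15 such factors that was called (6.67%, against 5.26% of all genes). *Klf8* had 10.1, 5.4 and 5.68 CPM in FAK-WT, 0.33, 0.18 and 0.117 CPM in FAK-kd and 5.44 CPM in FAK-/- cells (4.81 ± 0.33).

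No gene was past the threshold, by edgeR or by DESeq2, among 43 cytosolic ribosomal proteins, 38 respiratory chain genes and 23 genes of the unfolded protein response. Differences under the fold-change minimum were found, with an adjusted p not above 0.05 (edgeR) for 7, 7 and 10 of these genes. In the unfolded protein response 2 genes were called without FAK-kd replicate 2 and 1 without FAK-kd replicate 3. Of 64 cell cycle and replication genes 1 was called (1.56%, against 5.26% of all genes), *Ccnd2*, at under 1 CPM in all 6 libraries. Of 88 chromatin remodelers and modifiers 2 were lower (2.27%; 1 call without FAK-WT replicate 3), *Smarca2* (6.29, 4.42 and 2.83 against 16.5, 12.8 and 14.3 CPM; log2 fold change -1.96 ± 0.33) and *Hdac11*. The cofactors *Wdr82*, *Actl6a* and *Smarcc2* differed by -0.22 ± 0.08, -0.10 ± 0.08 and -0.47 ± 0.07. *Cdkn1a*, the gene of p21, had 176, 180 and 174 CPM against 138, 138 and 139 CPM (0.35 ± 0.07), and *Trp53* differed by 0.03 ± 0.07.

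Smaller lists completed the count, with the share called in brackets, to be set beside 5.26% of all genes. The shares of the NRF2, p53, Hox and IGF lists were near it. Of 58 cell junction genes 3 were higher and 5 lower (13.8%). Of 31 genes of the cornified envelope and terminal differentiation 2 were higher and 3 lower (16.1%), with 3 in all called without FAK-WT replicate 3. Of 56 NRF2 and antioxidant genes 1 was higher, extracellular superoxide dismutase *Sod3*, and 2 were lower, *Bach2* and *Mgst1* (5.36%). Of 15 S100 proteins 1 was higher and 1 lower (13.3%; 1 call without FAK-WT replicate 3), and of 31 p53 and cell cycle inhibitor genes 2 were lower (6.45%). Of 29 Hox genes 2 were called higher (6.9%), *Hoxa10* and *Hoxb13*, but 0 without FAK-WT replicate 3, FAK-kd replicate 2 or FAK-kd replicate 3, and 0 with DESeq2. The other 4 Rhox genes in the table did not pass, although 2 genes of the cluster were called without FAK-WT replicate 2. Among 18 genes of the IGF axis and Runx factors only *Igfbp3* passed (5.56%), and *Runx1* had 84.3, 67.9 and 62.4 CPM against 90.6, 107 and 112 CPM (-0.61 ± 0.10, adjusted p = 4.6e-04). *Gata4*, a transcription factor the study names, was higher by 2.61 ± 0.59 with libraries that overlapped.

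**Figure D4:**
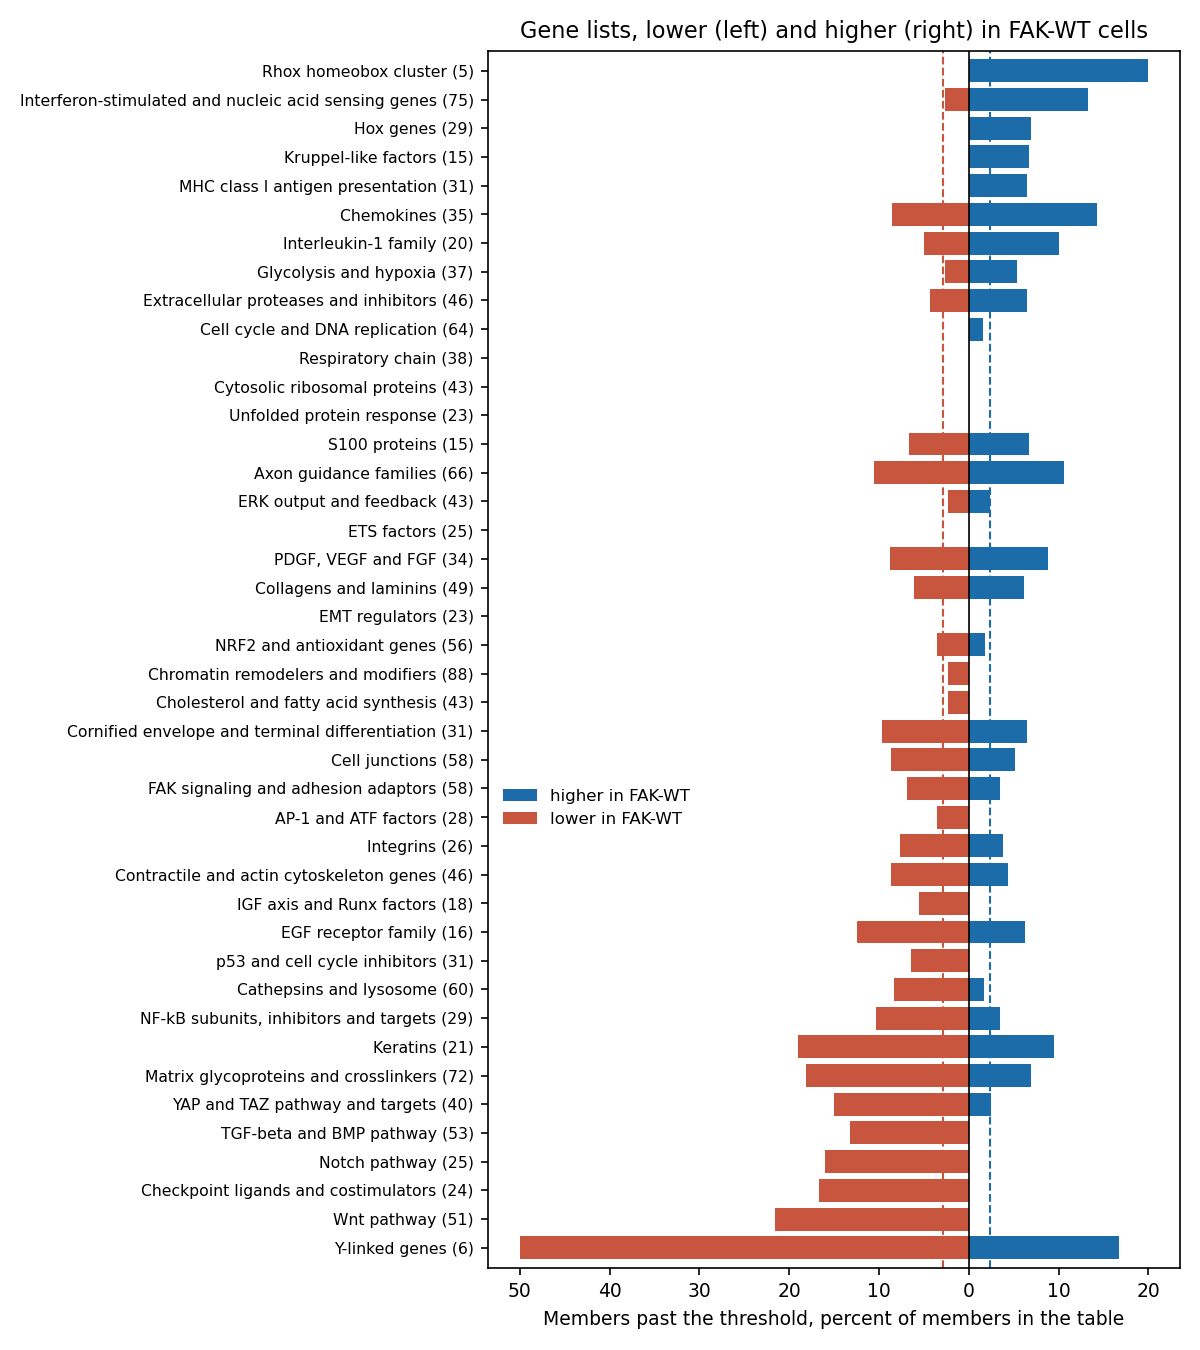
For each of 42 gene lists (number of members in the table in brackets), the bars give the percent of members past the threshold, lower in FAK-WT cells to the left in red and higher to the right in blue. Dashed lines give the shares over all genes tested, 2.89% and 2.37%. The Wnt, checkpoint, Notch and TGF-beta lists are among those with bars to the left alone, and the interferon list has its longer bar to the right.

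The position of genes in the genome moved with the comparison. The median log2 fold change of expressed genes was -0.02 over the genome, but -0.25 on chromosome 10 (577 genes), -0.21 on chromosome 13 (456 genes), -0.26 on chromosome 15 (483 genes) and 0.17 on chromosome 7 (903 genes). It lay between -0.07 and 0.06 on each of the other autosomes and the X chromosome. Relative to the FAK-/- libraries, the genes of chromosomes 10 and 13 had medians of -0.22 to -0.17 in the 3 FAK-WT libraries and 0.01 to 0.03 in the 3 FAK-kd libraries. Those of chromosome 15 had 0.22 in each FAK-kd library and -0.07 to -0.02 in the FAK-WT libraries, and those of chromosome 7 had -0.24 to -0.22 and -0.13 to -0.08. When the genes of a chromosome were divided by position into 3 equal parts, each part of chromosomes 10, 13 and 15 had a median between -0.33 and -0.18. The share of genes that were lower in FAK-WT cells was 5.72%, 7.89% and 6.63% on chromosomes 10, 13 and 15 against 4.21% of all expressed genes, and chromosomes 4, 14 and 19, whose medians were -0.03, -0.03 and -0.07, had 5.26%, 5.58% and 5.21%. The X chromosome had 7.33% of its genes higher against 2.62%. On the Y chromosome *Ddx3y* had 13.8, 17.5 and 17.9 CPM in FAK-WT and 41, 43.2 and 41.1 CPM in FAK-kd libraries, and 3 of 6 Y-linked genes were lower (2 calls in all without FAK-WT replicate 2), whereas *Uba1y* was higher (5.04, 13 and 13.4 against 0.75, 1.17 and 0.995 CPM). With each chromosome's median taken out in the fit, an alternative chosen after seeing the data, 451 genes were higher and 513 lower. *Ptk2*, *Wnt7b* and *Wnt10b* lie on chromosome 15, *Tgfbi* and *Nedd9* on chromosome 13, and *Col18a1* and *Timp3* on chromosome 10. DNA copy number was not measured, and its part in these values was not tested.

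**Figure D5:**
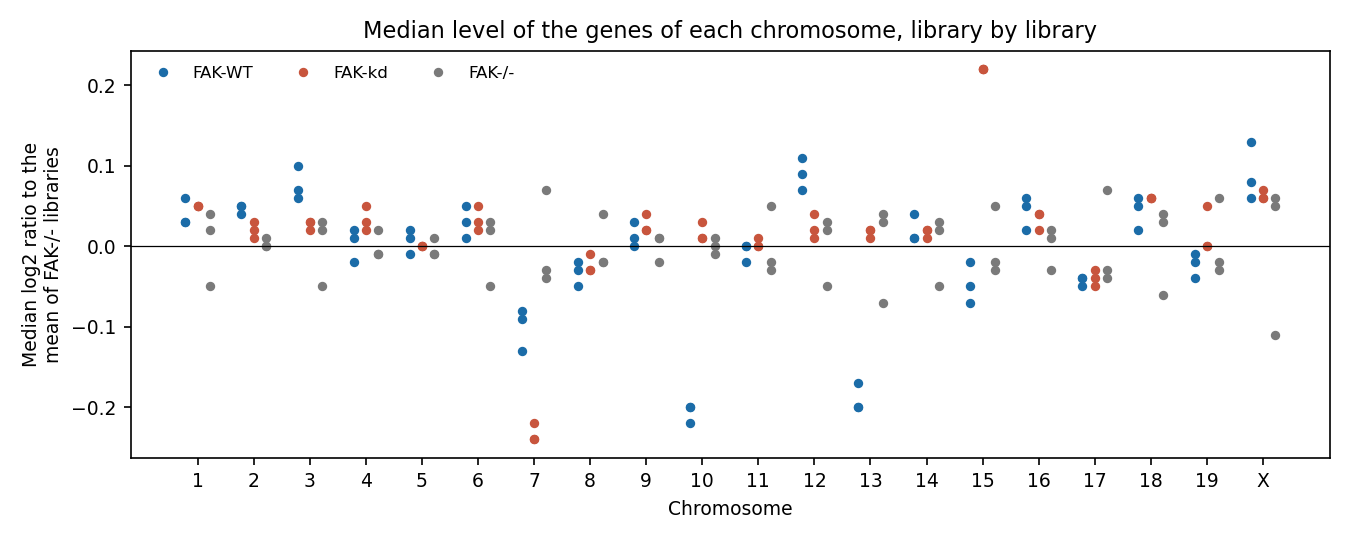
Median log2 ratio of each library to the mean of the FAK-/- libraries, over the genes of each chromosome with a mean of at least 20 CPM (1 point per library and chromosome). FAK-WT points lie at -0.22 to -0.17 on chromosomes 10 and 13, and FAK-kd points at 0.22 on chromosome 15 and at -0.24 to -0.22 on chromosome 7.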

How the data were processed

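RNA was measured by paired-end sequencing of TruSeq libraries. The authors pseudoaligned the reads with kallisto (version 0.43.1 per the submitters' processing notes, which name GRCm38 and mm10) and used tximport for gene-level sums. The deposited values are estimated counts, whole numbers as deposited, not scaled to library size, with genes at 0 in all libraries removed by the authors. Kallisto divides reads that fit several genes among them, so levels of near-identical genes are uncertain, and the kit does not mark strand. The transcript lengths tximport can pass on were not used here.

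Genes were tested in edgeR 4.0.16 (R 4.3.3). Counts were TMM-normalized, 1 quasi-likelihood fit (glmQLFit, glmQLFTest) held all 9 libraries with cell line as the factor and all genes, and the contrast was FAK-WT minus FAK-kd. Adjusted p-values are Benjamini-Hochberg values over 19044 genes. The thresholds were an adjusted p of 0.05 and a log2 fold change of 1, as in the study's methods. The pipeline was tested on simulated data. Symbols and positions came from GENCODE M21. CPM of single genes were compared by an exact permutation test. Where a group held 3 counts or fewer over its libraries, ratios of summed counts were given exact 95% intervals, which cover counting error only. Where it held no count, the fold was taken with the group set to a floor of 3 counts. Such a fold leaves out the counting error of the other group. Over a group 3 counts correspond to 0.0411 CPM in FAK-WT and 0.0297 CPM in FAK-kd cells.

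The comparison and the 43 gene lists were chosen with earlier results of these data known, and lists are described by counts without a test. Named genes are *Ptk2*, *Il33*, *Rhox5* and *Ctsz*; in each direction, of genes called with and without FAK-WT replicate 1 whose normalized counts average 100 or more and whose lines do not overlap, the 10 that differ most; up to 4 called members per list and direction; genes the study's text names; and receptors, ligands and regulators of a pathway. A few further members of the lists were named after their values were seen. Alternatives were DESeq2 1.42.0, other normalizations, filters, fold-change tests, the replicate number as a block, and leaving out each library. Replicate numbers did not pair the libraries: deviations of same-numbered libraries correlated at -0.076, -0.0825 and -0.0813 over 8088 genes. Differently numbered libraries correlated at 0.152 (FAK-WT 1 with FAK-kd 2), 0.171 (2 with 3) and 0.202 (3 with 1). The remaining pairs had -0.052, -0.0641 and -0.189. A pairing under other numbers was not tested. Some genes and 1 gene list are not reported here.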

Additional observations from a re-analysis of the deposited data

How the results depend on the processing

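Of the 451 genes higher and 550 lower in FAK-WT cells and the 181 list members past the threshold, a minimum of 10 counts in every library left 64, 69 and 31, since FAK-WT replicate 1 is shallow and few genes are tested. Testing against a log2 fold change of 1 (glmTreat) gave 193, 257 and 107, and no fold-change minimum gave 1443, 1933 and 541. DESeq2 called 315 and 438, the 6 libraries alone 523 and 579. With the replicate block 371 and 519 genes were called, and 143 of 153 named genes past the threshold kept their call. The numbers mark no pairing, and no call lost under the block is read as a weaker effect. Leaving out 1 FAK-WT or FAK-kd library gave 334 to 425 genes higher and 441 to 544 lower, and 1 FAK-/- library 461 to 541 and 532 to 609. The 153 named genes kept their direction in every fit that held them, and 150, 127 and 123 kept their call without FAK-WT replicate 1, 2 or 3 and 142, 135 and 137 without FAK-kd replicate 1, 2 or 3. Most were named for a large fold change, and the 10 in each direction had to be called without FAK-WT replicate 1. Their stability is thus partly set by the choice. Of all 1001 genes past the threshold, 632 kept their call in all 6 of these fits. Among named genes not past the threshold *Tbp* changed sign, at -0.01 without FAK-WT replicate 1, and ranged from -0.01 to 0.08 over the fits without 1 library. For genes of low level, depth is the limit: 1 count in FAK-WT replicate 1 exceeds 1 CPM.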

Other observations

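Genes with no count on 1 side included several developmental and oxidase genes, chosen here after their values were seen. *Zic2*, a zinc finger factor of neural development, had 4, 215 and 203 counts in the FAK-WT libraries and 0 in each FAK-kd library, at least 194-fold higher. *Nkx2-5*, a cardiac homeobox factor, had 5, 131 and 115 counts against 0, 116-fold higher with the same floor. *Cyba*, a subunit of the NADPH oxidase, had 0 counts in FAK-WT and 110, 125 and 120 in FAK-kd libraries. It was 85.7-fold lower with the FAK-WT group set to that floor, and FAK-/- cells had 4.14 CPM.

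The gene with the largest fitted log2 fold change, *1700047I17Rik2* (11.22), had 33 counts in FAK-WT replicate 1, the library of 779755 counts, and 0 in every other FAK-WT and FAK-kd library, and was not called without that library.

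At the other end of the range of levels, *Noct*, a deadenylase-related gene of the circadian system, was the most abundant gene past the threshold. It had 2145, 97418 and 96202 counts in the FAK-WT libraries and 40679, 39971 and 41032 in the FAK-kd libraries (log2 fold change 1.16, adjusted p = 9.6e-08), and 1276 CPM in FAK-/- cells. *Slc38a6*, a transporter gene, followed with a log2 fold change of 1.11.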
